A study of Mus musculus with 15 samples.

Results

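The glucocorticoid receptor gene Nr3c1 and 5 genes that its hormone is known to induce, Tsc22d3, Fkbp5, Klf9, Sgk1 and Pdk4, were followed in intestinal innate lymphoid cells over the day. These 6 genes were listed as a readout of the daily corticosterone cue and were found by symbol among 22797 genes in the deposited counts. PolyA RNA was sequenced from group 3 (ILC3) and group 2 (ILC2) innate lymphoid cells, lymphocytes that lack rearranged antigen receptors, sorted from the small intestine of female mice. Mice were killed at zeitgeber times ZT4, ZT10, ZT16 and ZT23, counted in hours. ILC3 gave 2 libraries at each of the 4 times. ILC2 gave 2 libraries at ZT4, ZT10 and ZT23 and 1 library at ZT16, so 15 libraries formed 8 groups. No group carried a treatment or an engineered allele in the labels, and strain, age, lighting and sort gates are not given in the sources used here. Cells of 6 mice were pooled at each time, and the labels do not say if the 2 libraries of a group were 2 pools, so p-values measure the spread between these libraries, which may be technical. Batch 2 held all ILC3 libraries and batch 1 all ILC2 libraries; the effects of batch and of cell type cannot be told apart.

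Corticosterone, the main glucocorticoid of mice, is released by the adrenal gland in a daily rhythm that peaks around the start of the dark phase in these nocturnal animals. The hormone enters cells and binds the receptor, which is held ready by Hsp90 chaperones in the cytoplasm, moves to the nucleus and binds DNA at a palindrome of spaced hexamers, inducing some genes and repressing many inflammatory ones. Glucocorticoids are known to restrain type 2 cytokine production by ILC2, and the intestinal epithelium can make corticosterone itself. No hormone was measured here.

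Total counts ran from 5903163 to 24794403 in ILC3 libraries and from 4016298 to 18538315 in ILC2 libraries. The labels fitted the lineage markers: all 7 ILC3 markers were higher and all 8 ILC2 markers lower in ILC3. Il23r, a subunit of the receptor through which ILC3 respond to IL-23, lay between 64.7 and 163 CPM in ILC3 libraries and between 0.68 and 7.63 CPM in ILC2 libraries (CPM, counts scaled to the depth of each library). RNA of other cells was also present. The summed level of 10 plasma and B cell markers was 605 to 4600 CPM in ILC3 libraries and 19600 to 196000 CPM in ILC2 libraries, and none of the 10 was at 0 throughout either cell type. Myeloid markers (12 genes) summed to 1830 to 4330 CPM in ILC3 libraries and 1100 to 2720 CPM in ILC2 libraries, with S100a8 at 0 in every ILC2 library. Mast cell, basophil and eosinophil markers (8 genes) summed to 632 to 2870 CPM in ILC3 libraries and 96.7 to 690 CPM in ILC2 libraries, with Epx at 0 in every ILC2 library. T cell markers (9 genes) summed to 338 to 2710 CPM in ILC3 libraries and 685 to 1050 CPM in ILC2 libraries. The ranges of 12 epithelial markers were 420 to 6690 CPM in ILC3 libraries and 242 to 1230 CPM in ILC2 libraries, and the highest sums belonged to replicate 2 of ILC3 at ZT23 (6690 CPM) and replicate 2 of ILC3 at ZT4 (2730 CPM). The first of these also had the highest sum of 5 erythroid markers, 1430 CPM against at most 176 CPM in any other library, and the second the highest sum of 9 stromal and endothelial markers, 453 CPM against at most 237 CPM in any other library. In bulk RNA, fewer cells of a type and less RNA per cell cannot be told apart.

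The receptor and its best-known immune target were both lower in ILC3, whereas Klf9 and Sgk1 were higher. Nr3c1 and Tsc22d3 fell and Klf9 and Sgk1 rose in ILC3 relative to ILC2 at an adjusted p under 0.05, and Fkbp5 and Pdk4 did not pass. These 4 of 6 genes stood beside 27.1% of the 15339 genes tested, of which 2318 were higher and 1839 lower in ILC3. In 2 of 6 genes, Nr3c1 and Tsc22d3, no ILC3 library overlapped any ILC2 library, against 12.1% of all genes.

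**Figure D1:**
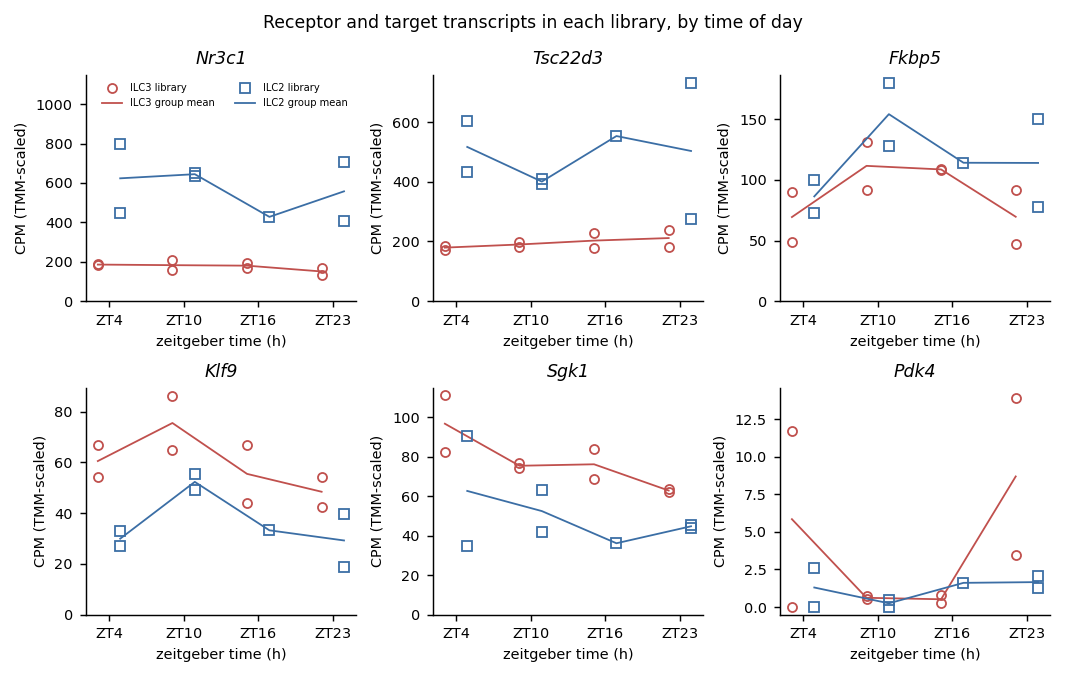
Level of each of the 6 genes (CPM, y axis) by zeitgeber time (x axis); each circle is an ILC3 library, each square an ILC2 library, and lines join group means. ILC3 libraries lie below ILC2 libraries at every time for Nr3c1 and Tsc22d3 and above them at every time for Klf9, and 2 ILC3 libraries, at 11.7 and 13.9 CPM, stand above the others for Pdk4.

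Nr3c1 encodes the receptor, a nuclear receptor that is the point of entry for the hormone signal (Entrez gene 14815). In ILC3 the ZT4 libraries had 190 and 182 CPM of Nr3c1, those of ZT10 207 and 159, those of ZT16 194 and 167, and those of ZT23 169 and 133. In ILC2 the ZT4 libraries had 800 and 447 CPM of Nr3c1, those of ZT10 653 and 636, the single one of ZT16 428, and those of ZT23 409 and 706. Every ILC3 library was thus below every ILC2 library, and the ILC2 libraries spread more widely at ZT4 and ZT23 than the ILC3 libraries did at any time. Mean levels of Nr3c1 were 175 ± 23.1 CPM in ILC3 (SD, n = 8) and 583 ± 154 CPM in ILC2 (SD, n = 7), and the fitted log2 fold change was -1.67 ± 0.17 (SE), that is 3.19-fold lower in ILC3, with an adjusted p of 1.98e-05 (edgeR quasi-likelihood test, Benjamini-Hochberg adjustment, as for every adjusted p here). The plasma cell markers, which are far higher in ILC2 libraries, moved against Nr3c1 within ILC2: Nr3c1 was 409 CPM in the ILC2 library with the most plasma cell RNA (196000 CPM of markers) and 706 CPM in the one with the least (19600 CPM). Every ILC2 library held more plasma cell RNA than any ILC3 library, and its part in the difference of Nr3c1 between the cell types was not tested. Across the 7 ILC2 libraries r was -0.744 and rho -0.75 (exact permutation p = 0.0563 and 0.0663, adjusted p = 0.21 and 0.289 over 48 relations), and r was -0.64 without the 2 libraries farthest from the median. The summed immediate-early and dissociation genes had r -0.776 and rho -0.714 with Nr3c1 in ILC2 (exact permutation p = 0.0198 and 0.0881, adjusted p = 0.195 and 0.308). Without the 2 farthest libraries r was -0.391, and over all ILC3 libraries r was 0.421. Epithelial markers had r -0.714 and rho -0.714 in ILC3 (exact permutation p = 0.0499 and 0.0576, adjusted p = 0.21 and 0.289). In ILC2 their r was -0.55, and neither part was tested.

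Nr3c2, Esr1 and Esr2, relatives of the receptor in nuclear receptor subfamily 3, were scarce beside it. Per gene length, Nr3c1 had 27.7 ± 3.65 RPKM in ILC3 and 92.1 ± 24.4 RPKM in ILC2 (SD, n = 8 and 7; RPKM, CPM divided by gene length in kilobases). Nr3c2, the mineralocorticoid receptor that also binds corticosterone, had 0.738 ± 0.348 RPKM in ILC3 and 1.21 ± 0.586 RPKM in ILC2, with a log2 fold change of -0.52 ± 0.43 (SE) and an adjusted p of 0.409. The estrogen receptor Esr1 had 0.732 ± 0.176 RPKM in ILC3 and 0.396 ± 0.328 RPKM in ILC2 and was not called (adjusted p 0.34). Esr2 had no count in any library.

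Tsc22d3 encodes GILZ, a leucine zipper protein induced by the receptor that binds and inhibits NF-kB and AP-1 (Entrez gene 14605). It was the most abundant of the 6 transcripts per length in both cell types, at 78.8 ± 9.86 RPKM in ILC3 and 195 ± 61.4 RPKM in ILC2. Of its 3 start-site windows in the RefSeq promoter table of GRCm38.p6 (mm10), 1 held the receptor's DNA-binding hexamer AGAACA on either strand, and that window, chrX:140600473-140600772 on the minus strand, is shown 5′ to 3′ with the hexamer in capitals, read on the opposite strand and starting 185 bases before the start site.
Tsc22d3 promoter: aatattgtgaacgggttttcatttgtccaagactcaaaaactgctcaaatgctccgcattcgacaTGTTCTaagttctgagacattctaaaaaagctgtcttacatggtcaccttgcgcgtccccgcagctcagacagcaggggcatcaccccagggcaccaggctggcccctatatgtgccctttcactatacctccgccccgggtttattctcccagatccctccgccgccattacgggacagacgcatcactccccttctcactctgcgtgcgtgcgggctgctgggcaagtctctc
Such a hexamer stood in 19.0% of all 32851 windows of the same 300 bases.

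In ILC3 the ZT4 libraries had 186 and 173 CPM of Tsc22d3, those of ZT10 197 and 183, those of ZT16 228 and 178, and those of ZT23 240 and 183. In ILC2 the ZT4 libraries had 602 and 431 CPM of Tsc22d3, those of ZT10 393 and 408, the single one of ZT16 553, and those of ZT23 731 and 275. ILC3 libraries lay in a narrow band below all ILC2 libraries, and both the highest and the lowest ILC2 library came from ZT23. Mean levels of Tsc22d3 were 196 ± 24.5 CPM in ILC3 (SD, n = 8) and 485 ± 153 CPM in ILC2 (SD, n = 7), a log2 fold change of -1.32 ± 0.20 (SE) or 2.50-fold lower in ILC3 with an adjusted p of 0.000339. In ILC2 the gene moved with plasma cell RNA: the libraries with the most and the least plasma cell markers, 196000 and 19600 CPM, were those at 731 and 275 CPM of Tsc22d3. Across the 7 ILC2 libraries r was 0.896 and rho 0.857 (exact permutation p = 0.00774 and 0.0238, adjusted p = 0.186 and 0.289 over 48 relations), and r was 0.539 without the 2 farthest libraries. How much of the Tsc22d3 of ILC2 libraries came from plasma cells was not tested. The ILC2 library with the least plasma cell RNA, at 19600 CPM of markers, still held more of it than any ILC3 library, at 4600 CPM or less. Of its relatives, Tsc22d1 was also lower in ILC3 (log2 fold change -0.79 ± 0.20 SE, adjusted p 0.0101), while Tsc22d2 at -0.16 and Tsc22d4 at -0.35 did not pass.

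Klf9 encodes a Kruppel-like zinc finger transcription factor induced by glucocorticoids and also driven by the clock (Entrez gene 16601, chr19:23141226-23168129). In ILC3 the ZT4 libraries had 54.1 and 66.9 CPM of Klf9, those of ZT10 86.0 and 65.0, those of ZT16 66.8 and 44.1, and those of ZT23 54.4 and 42.4. In ILC2 the ZT4 libraries had 26.9 and 32.9 CPM of Klf9, those of ZT10 49.2 and 55.4, the single one of ZT16 33.2, and those of ZT23 18.7 and 39.7. Over all times the cell types overlapped, but within each of the 4 times every ILC3 library was above every ILC2 library. Klf9 was the 1 gene of 6 with that order at each time, which 9.35% of all genes also had; Nr3c1 and Tsc22d3 were lower in ILC3 without overlap at each time, as 8.06% of genes were. Mean levels of Klf9 were 60 ± 14.3 CPM in ILC3 (SD, n = 8) and 36.6 ± 12.7 CPM in ILC2 (SD, n = 7), a log2 fold change of 0.75 ± 0.18 (SE) or 1.68-fold higher in ILC3, with an adjusted p of 0.00955. Among 9 Kruppel-like factors read, Klf9 and Klf10 (0.60 ± 0.19, adjusted p 0.0321) were higher in ILC3, and Klf2, Klf3, Klf4 and Klf6 were lower, by log2 fold changes from -1.65 for Klf2 to -0.59 for Klf3. The other 3, Klf7, Klf12 and Klf13, were not called.

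Sgk1 encodes the serum and glucocorticoid regulated kinase, which acts on ion channels and transporters and on the FOXO factors (Entrez gene 20393). RefSeq places 6 start-site windows along the gene. One of them, chr10:21993640-21993939 on the plus strand, held the full palindrome of the receptor, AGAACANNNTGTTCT, whose fixed letters read the same on both strands and which is made of both orientations of the hexamer. The palindrome stood in 3 of 32851 windows (0.00913%), those of Sgk1, Acnat2 and the predicted gene Gm35041, and windows within 1 letter of its 12 fixed letters made up 0.164%. The window is shown 5′ to 3′, with capitals marking the palindrome, whose first base lies 189 bases before the start site, and an E-box, CACGTG, at 246 bases before it, which overlaps a further hexamer starting 242 bases before it.
Sgk1 promoter: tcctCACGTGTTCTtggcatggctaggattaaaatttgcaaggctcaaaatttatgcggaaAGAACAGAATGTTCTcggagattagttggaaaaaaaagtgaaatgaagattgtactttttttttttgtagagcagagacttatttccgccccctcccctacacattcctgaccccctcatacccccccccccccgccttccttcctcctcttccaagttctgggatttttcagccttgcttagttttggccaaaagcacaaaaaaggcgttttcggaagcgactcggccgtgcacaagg
No other window of the 5 genes with windows (12 in all; none is shown for Nr3c1) came within 1 letter of the palindrome.

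In ILC3 the ZT4 libraries had 111 and 82.3 CPM of Sgk1, those of ZT10 74.0 and 76.7, those of ZT16 68.6 and 83.6, and those of ZT23 63.6 and 62.0. In ILC2 the ZT4 libraries had 90.6 and 34.6 CPM of Sgk1, those of ZT10 62.9 and 41.9, the single one of ZT16 36.1, and those of ZT23 43.9 and 45.5. At ZT10, ZT16 and ZT23 every ILC3 library was above every ILC2 library, and at ZT4 they overlapped through 1 high ILC2 library. This order was not counted over all genes, so it cannot be called particular to Sgk1. Mean levels of Sgk1 were 77.8 ± 15.7 CPM in ILC3 (SD, n = 8) and 50.8 ± 19.8 CPM in ILC2 (SD, n = 7), a log2 fold change of 0.68 ± 0.20 (SE) or 1.60-fold higher in ILC3, with an adjusted p of 0.0218. Without the lone ILC2 library of ZT16 the log2 fold change was 0.54 and the call was lost (adjusted p 0.0641). A fit with the replicate number as a block, which also leaves out that library, gave 0.57 and kept the call by a small margin (adjusted p 0.0468). Sgk1 was highest in the libraries with the most myeloid RNA of each cell type, replicate 1 of ILC3 at ZT4 (111 CPM, 4330 CPM of myeloid markers) and replicate 1 of ILC2 at ZT4 (90.6 CPM, 2720 CPM of markers). Across the 8 ILC3 libraries r was 0.805 and rho 0.643 (exact permutation p = 0.0284 and 0.0962, adjusted p = 0.195 and 0.308 over 48 relations), and r was 0.514 without the 2 farthest libraries. In ILC2 r was 0.615 and rho 0.5 (exact permutation p = 0.148 and 0.267, adjusted p = 0.394 and 0.474), and r was 0.314 without the 2 farthest. The part of myeloid RNA in the difference was not tested. Sgk3, the sister kinase, was also higher in ILC3 (0.70 ± 0.19, adjusted p 0.0151).

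Fkbp5 encodes FKBP51, a cochaperone that docks on Hsp90 and lowers the receptor's affinity for hormone, so that its induction closes a negative feedback loop (Entrez gene 14229). Its window, chr17:28486100-28486399 on the minus strand, held no hexamer of the receptor and 1 E-box, the CACGTG bound by the clock activators, which 7.15% of windows hold. It is shown with the E-box in capitals, starting 169 bases before the start site. A link of these letters to time of day was not tested.
Fkbp5 promoter: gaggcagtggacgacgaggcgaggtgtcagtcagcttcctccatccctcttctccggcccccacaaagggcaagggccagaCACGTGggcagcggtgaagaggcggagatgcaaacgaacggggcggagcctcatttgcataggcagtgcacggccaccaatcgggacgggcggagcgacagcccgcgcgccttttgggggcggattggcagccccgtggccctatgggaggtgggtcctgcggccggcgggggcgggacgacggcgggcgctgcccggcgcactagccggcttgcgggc
The single Klf9 window and the single Pdk4 window held neither the hexamer nor an E-box, which says only that these letters are not in those 300 bases.

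In ILC3 the ZT4 libraries had 48.7 and 89.9 CPM of Fkbp5, those of ZT10 91.9 and 131, those of ZT16 108 and 109, and those of ZT23 91.7 and 47.4. In ILC2 the ZT4 libraries had 99.6 and 73.0 CPM of Fkbp5, those of ZT10 128 and 180, the single one of ZT16 114, and those of ZT23 77.7 and 150. The cell types overlapped at ZT4, ZT10 and ZT23. Mean levels of Fkbp5 were 89.7 ± 29.0 CPM in ILC3 (SD, n = 8) and 118 ± 38.7 CPM in ILC2 (SD, n = 7), and the log2 fold change of -0.39 ± 0.21 (SE) did not pass (adjusted p 0.203). Of 7 FK506-binding proteins, Fkbp1a was higher in ILC3 (0.78 ± 0.12, adjusted p 0.000605) and Fkbp2 (-1.36 ± 0.26) and Fkbp11 (-5.04 ± 0.51) were lower, the last 2 being proteins of the secretory pathway, read here beside plasma cell markers that differed the same way. Fkbp4, which encodes FKBP52, the cochaperone that competes with FKBP51 on the receptor complex, had a log2 fold change of 0.05 ± 0.15 (SE) and was not called (adjusted p 0.864).

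Pdk4 encodes pyruvate dehydrogenase kinase 4, which shuts off pyruvate entry into the citric acid cycle and favours fatty acid burning (Entrez gene 27273, chr6:5483351-5496278). It was barely detected. In ILC3 the ZT4 libraries had 0 and 11.7 CPM of Pdk4, those of ZT10 0.517 and 0.713, those of ZT16 0.788 and 0.246, and those of ZT23 3.49 and 13.9. In ILC2 the ZT4 libraries had 0 and 2.60 CPM of Pdk4, those of ZT10 0 and 0.494, the single one of ZT16 1.61, and those of ZT23 2.05 and 1.27. In ILC3, 2 libraries stood far above the other 6, and 1 ILC3 and 2 ILC2 libraries had no count. A count of 0 allows up to 3 counts, which is 0.558 CPM in that ILC3 library and 0.510 and 0.745 CPM in those ILC2 libraries of ZT4 and ZT10; these limits cover counting error only. Mean levels of Pdk4 were 3.92 ± 5.62 CPM in ILC3 (SD, n = 8) and 1.15 ± 1.02 CPM in ILC2 (SD, n = 7), and the log2 fold change of 0.95 ± 0.90 (SE) did not pass (adjusted p 0.482). Without replicate 2 of ILC3 at ZT4 it was -1.44, and without both high libraries -1.76, so its direction rested on them.

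**Figure D2:**
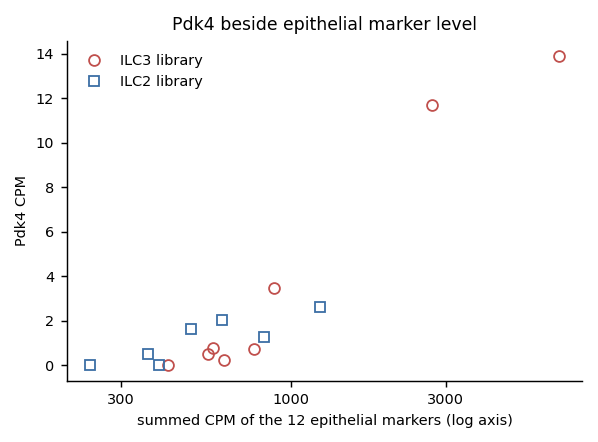
Pdk4 level (CPM, y axis) against the summed level of 12 epithelial markers (CPM, log x axis); each circle is an ILC3 library and each square an ILC2 library. The 2 libraries with the most epithelial RNA, at 2730 and 6690 CPM of markers, are the 2 highest for Pdk4, at 11.7 and 13.9 CPM.

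The 2 ILC3 libraries with the most Pdk4 were the 2 with the most epithelial RNA. Across the 8 ILC3 libraries Pdk4 and the summed epithelial markers had r 0.899 and rho 0.881 (exact permutation p = 0.000322 and 0.00724, adjusted p = 0.0155 and 0.289 over 48 relations). By r the relation passed the adjusted threshold and by rho it did not, and without the 2 farthest libraries r was 0.884. Across the 7 ILC2 libraries r was 0.81 and rho 0.829 (exact permutation p = 0.0274 and 0.0302, adjusted p = 0.195 and 0.289), and 0.64 without the 2 farthest. The genes most like Pdk4 over the 15 libraries, after the mean of each cell type was subtracted, were Mmp7 (r 0.935), Tspan8 (0.920), Tff3 (0.913), Defa34 (0.912) and Defa29 (0.911); Mmp7 and the alpha-defensins are products of Paneth cells and Tff3 of goblet cells. These 2 libraries also stood highest for erythroid (1430 CPM, ZT23) and for stromal and endothelial markers (453 CPM, ZT4). Whether the Pdk4 reads came from epithelial or other cells was not tested. Among the other kinases and phosphatases of pyruvate dehydrogenase, Pdk1, Pdk2 and Pdk3 had mean levels of 9.11 to 22.4 RPKM in ILC3 and 8.55 to 19.0 RPKM in ILC2, beside 1.14 and 0.332 RPKM for Pdk4, and none of them was called. Pdp1, a phosphatase that turns pyruvate dehydrogenase on, was higher in ILC3 (1.19 ± 0.21, adjusted p 0.00106).

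**Figure D3:**
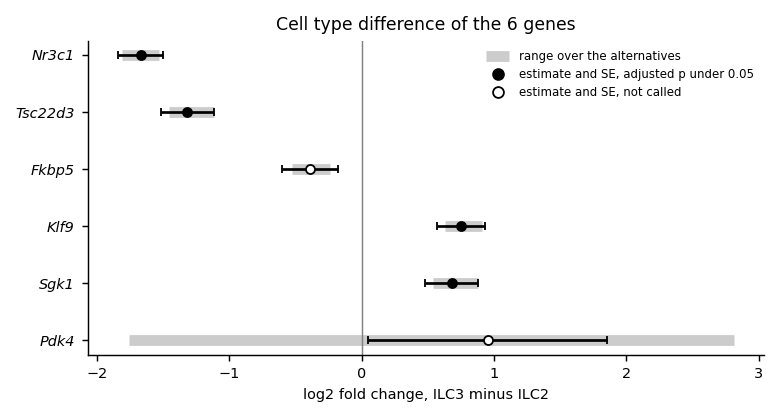
Log2 fold change of ILC3 minus ILC2 (x axis) for the 6 genes (y axis); points and bars are the estimate and its SE, filled where the adjusted p was under 0.05, and grey bands span the alternative settings. Nr3c1 at -1.67 and Tsc22d3 at -1.32 lie left of 0, Klf9 at 0.75 and Sgk1 at 0.68 lie right of it, and the band of Pdk4 crosses 0.

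In order of level per length, ILC3 had Tsc22d3 (78.8 RPKM), Nr3c1 (27.7), Fkbp5 (26.8), Sgk1 (18.7), Klf9 (18.4) and Pdk4 (1.14). ILC2 had Tsc22d3 (195 RPKM), Nr3c1 (92.1), Fkbp5 (35.1), Sgk1 (12.2), Klf9 (11.2) and Pdk4 (0.332), the same order. Neighbours in this order often overlapped between libraries: in ILC3, Nr3c1 spanned 21.0 to 32.7 RPKM and Fkbp5 14.2 to 39.1 RPKM, and Sgk1 at 14.9 to 26.8 RPKM covered much of Klf9 at 13 to 26.4 RPKM. In ILC2, Tsc22d3 at 111 to 294 RPKM and Nr3c1 at 64.6 to 126 RPKM overlapped, and Nr3c1 and Fkbp5, at 21.8 to 53.9 RPKM, did not.

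None of the 6 genes changed with time of day at the adjusted threshold, in either cell type. That held for 0 of 6 genes in the test over the 4 times in ILC3 (lowest unadjusted p 0.0764) and in ILC2 (lowest 0.0888), and 0.0% of all genes passed in each; an unadjusted p under 0.05 was found for 4.36% of genes in ILC3 and 3.36% in ILC2. Other tools differed over all genes: DESeq2 called 31 genes over time in ILC3 and 24 in ILC2, with none of the 6 among them, and limma voom called 0 in each. The unadjusted counts moved with single libraries. In ILC3 the 669 genes became 1873 without replicate 2 of ILC3 at ZT4 and 269 without replicate 2 of ILC3 at ZT23, and in ILC2 the 516 genes became 1012 without replicate 2 of ILC2 at ZT4 and 302 without replicate 1 of ILC3 at ZT16. The interaction of cell type with time called 0 of 6 genes and 0.0% of all genes in edgeR, with 307 genes at an unadjusted p under 0.05. DESeq2 called 2 genes for this interaction and limma voom 0, and neither called any of the 6. The largest gap between replicates of a group exceeded the whole range of the 4 group means in 10 of the 12 pairs of gene and cell type. The same was not counted over all genes, so it cannot be called particular to the 6.

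Plasma corticosterone of mice peaks near dusk, and the mean of ZT10 and ZT16 was therefore set against the mean of ZT23 and ZT4. Fkbp5 and Klf9 were the only genes of the 6 with positive differences above 0.2 in both cell types, and none of the 6 passed. For Fkbp5 the log2 difference was 0.66 ± 0.29 (SE) in ILC3 (unadjusted p 0.0402, adjusted p 0.66) and 0.42 ± 0.32 in ILC2 (unadjusted p 0.208, adjusted p 1.0). Its group means, from ZT4 on, were 69.3, 111, 109 and 69.5 CPM in ILC3, and in ILC2 they were 86.3, 154, 114 and 114 CPM. In ILC3 the ZT10 and ZT16 libraries (91.9 to 131 CPM) met but did not overlap the ZT23 and ZT4 libraries (47.4 to 91.7 CPM). In ILC2 they overlapped. The low end in ILC3 was replicate 1 of ZT4 and replicate 2 of ZT23, with 89.9 and 91.7 CPM in the others. Those 2 low libraries had the lowest ILC3 sums of 12 immediate-early and dissociation genes, 15400 and 17400 CPM. Fkbp5 and that sum had r 0.786 and rho 0.429 in ILC3 (exact permutation p = 0.0246 and 0.299, adjusted p = 0.195 and 0.513). Without the 2 farthest libraries r was -0.208, and its part was not tested. Such an order was not counted over all genes.

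**Figure D4:**
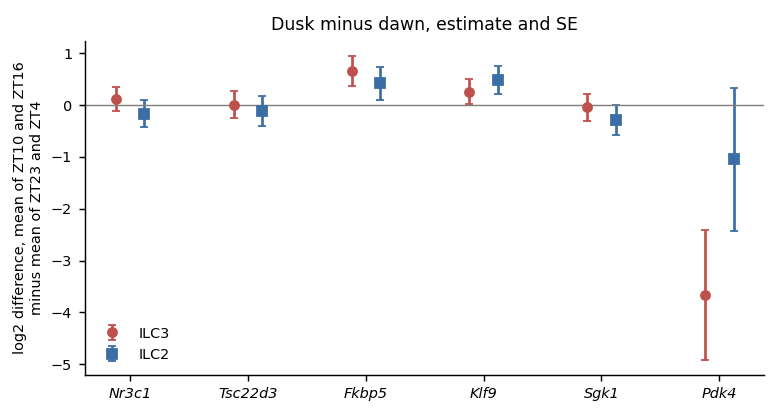
Log2 difference between the mean of ZT10 and ZT16 and the mean of ZT23 and ZT4 (y axis) for the 6 genes (x axis), with its SE; circles are ILC3 and squares ILC2. Fkbp5 (0.66 in ILC3 and 0.42 in ILC2) and Klf9 (0.26 and 0.49) lie above 0 in both cell types, and none of the 12 differences passed the adjusted threshold.

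For Klf9 the difference was 0.26 ± 0.24 (SE) in ILC3 and 0.49 ± 0.27 in ILC2, with unadjusted p of 0.305 and 0.0905. The group means of Klf9 peaked at ZT10 in both cell types, at 60.5, 75.5, 55.4 and 48.4 CPM over the 4 times in ILC3 and 29.9, 52.3, 33.2 and 29.2 CPM in ILC2. Between ZT23 and ZT10 the log2 difference of Klf9 was -0.64 ± 0.34 (SE) in ILC3 (unadjusted p 0.0826, adjusted p 0.598) and -0.84 ± 0.34 in ILC2 (unadjusted p 0.0316, adjusted p 1.0). In ILC2 at ZT10 its 49.2 and 55.4 CPM were above every other ILC2 library, of which the highest had 39.7 CPM. How many genes share this order was not counted. These 2 libraries had 51400 and 38100 CPM of plasma cell markers, less than every other ILC2 library but replicate 2 of ZT23 (19600 CPM). The part of plasma cell RNA in this order was not tested. For the receptor itself the dusk minus dawn difference was 0.12 ± 0.23 (SE) in ILC3 and -0.17 ± 0.26 in ILC2. For Tsc22d3 it was 0.01 ± 0.26 in ILC3 and -0.12 ± 0.29 in ILC2, and for Sgk1 -0.04 ± 0.26 in ILC3 and -0.28 ± 0.29 in ILC2. These 3 genes gave no dusk rise that the spread between libraries could resolve.

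Pdk4 had the other unadjusted p under 0.05, with a dusk minus dawn log2 difference of -3.66 ± 1.25 (SE) in ILC3 (unadjusted p 0.0125, adjusted p 0.66) and -1.04 ± 1.38 in ILC2 (unadjusted p 0.465). Its 2 epithelium-rich libraries were both among the dawn libraries, at ZT4 and ZT23, and with both left out the difference in ILC3 was 1.76; with replicate 2 of ILC3 at ZT4 alone left out it was 1.11. At dusk minus dawn, 2 of 6 genes in ILC3 and 0 of 6 in ILC2 were thus under an unadjusted p of 0.05, beside 7.28% and 4.61% of all genes, and 0.0% of genes were called in either. DESeq2 called 3 genes at dusk minus dawn in ILC3 and 6 in ILC2, none of them among the 6, and limma voom 0 in each. The background of ILC3, 1117 genes at an unadjusted p under 0.05, was 237 without replicate 2 of ILC3 at ZT23 and 2601 without replicate 1 of that group, and the 707 genes of ILC2 were 1145 without replicate 2 of ILC2 at ZT4. Klf9 was the 1 gene of 6 under 0.05 between ZT23 and ZT10 in ILC2, beside 2.9% of all genes. The difference between the cell types in dusk minus dawn, ZT16 minus ZT4 and ZT23 minus ZT10, the last 2 taken within either cell type, called 0 of 6 genes and 0.0% of all genes. At an unadjusted p under 0.05 there were 349 genes for that difference, 511 in ILC3 and 724 in ILC2 for ZT16 minus ZT4, and 1253 in ILC3 and 445 in ILC2 for ZT23 minus ZT10. DESeq2 called 0 genes for that difference, 2 in ILC3 and 4 in ILC2 for ZT16 minus ZT4, and 24 in ILC3 and 5 in ILC2 for ZT23 minus ZT10, again with none of the 6, and limma voom called 0 in each.

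As a description without a test, cosine curves with a 24-hour period placed the peak of Fkbp5 at 13.16 ± 1.88 h in ILC3 and 13.31 ± 3.23 h in ILC2 (SE). Klf9 peaked at 9.13 ± 1.48 h in ILC3 and 10.92 ± 2.16 h in ILC2. Of the other 4 genes, Nr3c1 peaked at 9.67 ± 2.67 h in ILC3 and 6.46 ± 3.0 h in ILC2 and Sgk1 at 7.05 ± 2.29 h in ILC3 and 5.65 ± 2.96 h in ILC2. Tsc22d3 peaked at 19.13 ± 2.83 h in ILC3 and 21.18 ± 13.84 h in ILC2, and Pdk4 at 23.44 ± 2.8 h in ILC3 and 20.2 ± 2.35 h in ILC2. Their log2 amplitudes in ILC3 and ILC2 were 0.14 ± 0.1 and 0.27 ± 0.26 (SE) for Nr3c1 and 0.21 ± 0.14 and 0.34 ± 0.33 for Sgk1. They were 0.11 ± 0.1 and 0.09 ± 0.3 for Tsc22d3 and 1.69 ± 1.16 and 1.62 ± 1.03 for Pdk4. The curve explained 2.28% (Tsc22d3 in ILC2) to 39.5% (Pdk4 in ILC2) of the variance of these 4. With so few libraries such a curve explains part of the variance without any rhythm, and that share was not estimated. For comparison, the clock output gene Dbp peaked at 10.36 ± 0.64 h in ILC3 and 9.17 ± 0.36 h in ILC2, and Per1, which is both a clock gene and a glucocorticoid target, at 9.59 ± 1.08 h in ILC3 and 8.99 ± 0.85 h in ILC2. The log2 amplitude was 0.48 ± 0.21 (SE) in ILC3 and 0.34 ± 0.25 in ILC2 for Fkbp5, and 0.34 ± 0.14 and 0.48 ± 0.22 for Klf9. Dbp had 1.36 ± 0.23 and 1.31 ± 0.11 in ILC3 and ILC2, and Per1 had 0.58 ± 0.17 and 0.41 ± 0.09. Of 19 clock genes, 7 in ILC3 and 6 in ILC2 had an unadjusted p under 0.05 over the 4 times, and none was called. The curve explained 51.8% and 31.8% of the variance of Fkbp5 in ILC3 and ILC2, and 53.4% and 54.8% of that of Klf9. It explained 87.9% and 97.2% of that of Dbp, and 69.6% and 85.6% of that of Per1.

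None of the 30 relations among the 6 genes passed the adjusted threshold, and the closest ran in both directions. Within ILC2 Fkbp5 and Klf9 varied together, with r 0.802 and rho 0.857 over 7 libraries (exact permutation p = 0.0302 and 0.0238, adjusted p = 0.26 and 0.288 over 30 relations among the 6 genes), and r 0.91 without the 2 farthest. Within ILC3 r was 0.437 and rho 0.286 over 8 libraries (exact permutation p = 0.28 and 0.501, adjusted p = 0.6 and 0.874). Tsc22d3 ran against both within ILC2: with Klf9 r was -0.757 and rho -0.821 (exact permutation p = 0.047 and 0.0341, adjusted p = 0.26 and 0.288), and r -0.838 without the 2 farthest, and with Fkbp5 r was -0.618 and rho -0.679 (exact permutation p = 0.137 and 0.11, adjusted p = 0.515 and 0.411), and r -0.319 without the 2 farthest. Sgk1 and Pdk4 had r -0.89 and rho -0.811 within ILC2 (exact permutation p = 0.0131 and 0.0381, adjusted p = 0.26 and 0.288), and r -0.429 without the 2 farthest. Fkbp5 and Klf9 were lower in ILC2 libraries with more plasma cell RNA: r was -0.821 for Fkbp5 and -0.75 for Klf9 with the plasma cell markers (exact permutation p = 0.025 and 0.052, adjusted p = 0.195 and 0.21; rho -0.786 and -0.75, adjusted p = 0.289 for both), and -0.85 and -0.811 without the 2 farthest libraries. Tsc22d3 was higher in them, as given above, and the part of plasma cell RNA in these relations was not tested. None of the 10 pairs of Nr3c1 with a target in a cell type passed the adjusted threshold, and the lowest adjusted p of r was 0.26. Closest were Klf9 in ILC3 (r 0.749, rho 0.714), Sgk1 in ILC2 (r 0.752, rho 0.714) and Pdk4 in ILC2 (r -0.771, rho -0.757). Their exact permutation p of r were 0.0312, 0.0407 and 0.052, each with an adjusted p of 0.26. Without the 2 farthest libraries r was 0.288, 0.796 and -0.698 in that order. With 7 or 8 libraries such relations could not be resolved.

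By likeness over the 15 libraries of log2 CPM, centred within each cell type and among 9038 genes, the 5 nearest genes to Nr3c1 were Avl9 (r 0.944), Socs5 (0.944), Sp4 (0.942), Zbtb1 (0.917) and Zdhhc20 (0.909). Without centring they were Enpp4, Fbxl21, Lmo4, Bzw2 and Ptpn13, at r 0.976 to 0.985, which carry the difference between cell types. Nearest to Tsc22d3 were Rnf34, Timm29, Saysd1, Gpr162 and Tmem154 (r 0.814 to 0.902). Nearest to Fkbp5 were Rab11fip4, Pear1, Arap3, Gprasp1 and Zmym3 (0.913 to 0.919), and nearest to Klf9 were Arhgef18, Ksr1, Coro2a, Tcf7 and Klf3 (0.871 to 0.904). Sgk1 was most like Cd86, Treml4, Marcksl1, Trem1 and Sh3pxd2b (0.916 to 0.932); Cd86, Trem1 and Treml4 are receptors of antigen-presenting and myeloid cells. None of the 6 genes had another of the 6 among its 5 nearest.

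Around the receptor, 50 of 122 tested genes of a list of its chaperones, hormone-handling enzymes, cofactors and targets differed between the cell types (41.0%, beside 27.1% of all genes), 26 higher and 24 lower in ILC3. Their median log2 fold change was -0.02, beside 0.11 over all genes tested. By role, 3 of 17 chaperones, 3 of 11 genes of steroid handling, 5 of 22 cofactors, 21 of 42 other induced genes and 18 of 30 repressed genes were called.

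**Figure D5:**
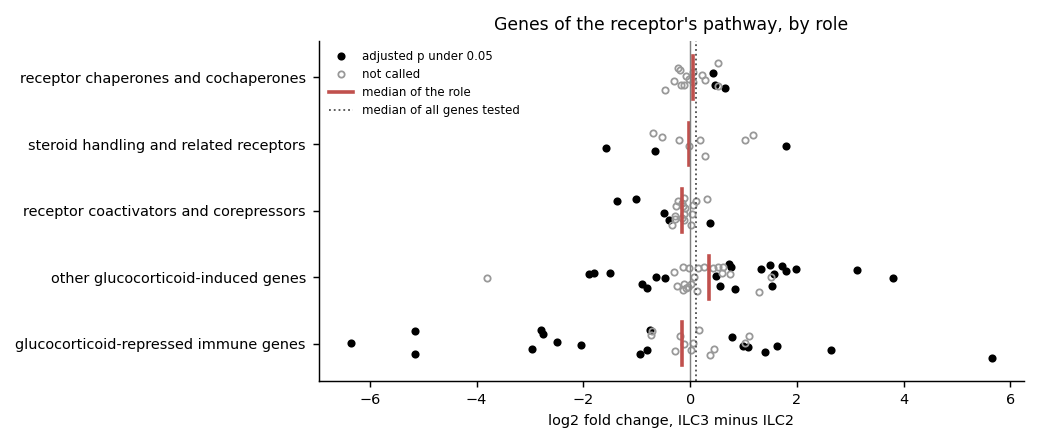
Log2 fold change of ILC3 minus ILC2 (x axis) for each tested gene of the list, by role (y axis); filled points passed an adjusted p of 0.05, red bars are medians of a role and the dotted line is the median of all genes tested (0.11). Chaperones lie within a narrow band around 0, and repressed immune genes reach from -6.36 (Il5) to 5.66 (Il22).

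Of 17 chaperones and cochaperones of the receptor 3 were called (17.6%, below the 27.1% of all genes), all higher in ILC3, namely Ppid, a cochaperone of Hsp90 (0.66 ± 0.18, adjusted p 0.0188), Ptges3, the p23 cochaperone (0.47 ± 0.13, adjusted p 0.0223), and Stub1, a ubiquitin ligase that marks clients of Hsp90 for degradation (0.43 ± 0.14, adjusted p 0.0339). Bag1 had 0.28 ± 0.11 and was not called. These calls were fragile, since leaving out single libraries lost that of Stub1 in 10 of 15 cases, that of Ppid in 3 (replicate 1 of ILC3 at ZT10 and both of ILC3 at ZT16) and that of Ptges3 in 1 (replicate 2 of ILC3 at ZT16), with adjusted p up to 0.121, 0.074 and 0.0744. Of 11 genes that handle steroids or are related receptors, Abcb1b, a drug pump that exports glucocorticoids, was lower in ILC3 (-1.58 ± 0.15, adjusted p 1.29e-05). Cyp11a1, which starts steroid synthesis from cholesterol, was higher (1.80 ± 0.43, adjusted p 0.00809), at 9.23 CPM in ILC3 and 2.89 CPM in ILC2. Mast cell, basophil and eosinophil markers differed the same way, at 632 to 2870 CPM in ILC3 and 96.7 to 690 CPM in ILC2. Which cells the Cyp11a1 reads came from was not tested. Hsd11b1, which regenerates active corticosterone inside cells, was lower (-0.65 ± 0.22, adjusted p 0.0418), a call lost in 9 of 15 omissions of a library, with adjusted p up to 0.0986. Por, also of this role, was not called (0.18 ± 0.11).

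Among 22 coactivators and corepressors 5 were called (22.7%, below the 27.1% of all genes), 4 of them lower in ILC3, and 2 to 5 were called when single libraries were left out. Ncoa1, the steroid receptor coactivator SRC-1, was lower (-1.02 ± 0.13, adjusted p 9.11e-05), and so was Nrip1, the corepressor RIP140 (-1.38 ± 0.21, adjusted p 0.000464). Ncoa2, the coactivator GRIP1 (-0.50 ± 0.15, adjusted p 0.0299), and Ehmt2, a histone methyltransferase (-0.39 ± 0.12, adjusted p 0.0309), were also lower, and each of these 2 calls was lost in 6 of 15 omissions of a library. The fifth called gene, Hdac1, was higher (0.38, adjusted p 0.0337).

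Targets outside the 6 were called in both directions. Of 42 other glucocorticoid-induced genes 21 were called, 14 higher and 7 lower in ILC3, with a median of 0.35. Higher were Anxa1, the annexin that mediates anti-inflammatory effects of the hormone (3.12 ± 0.32, adjusted p 1.96e-05), Cebpd, a transcription factor (1.99 ± 0.17, adjusted p 5.14e-06), and Errfi1, an inhibitor of EGF receptor signalling (1.5 ± 0.15, adjusted p 2.02e-05). Ctla4, an inhibitory receptor of lymphocytes, was lower (-1.81 ± 0.16, adjusted p 7.97e-06). Induced genes thus lay on both sides, as Klf9 and Sgk1 did against Tsc22d3. Of 30 glucocorticoid-repressed immune genes 18 were called, 7 higher and 11 lower, with a median of -0.15. Csf2 was lower (-2.97 ± 0.20, adjusted p 1.30e-06). So were the type 2 cytokines Il5 (-6.36 ± 0.48, adjusted p 2.39e-06) and Il4 (-5.16 ± 0.46, adjusted p 7.86e-06). Il13, also a type 2 cytokine, was lower as well (-5.15 ± 0.46, adjusted p 7.97e-06). Il22, the cytokine of ILC3, was the largest of the higher ones (5.66, adjusted p 4.80e-05). Il5, Il13 and Areg also belong to the ILC2 marker list and Il22 to that of ILC3, so these genes define the cell types compared.

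Over the 4 times none of the 122 genes was called in either cell type. At an unadjusted p under 0.05 there were 16 (13.1%) in ILC3, beside 4.36% of all genes, and 2 (1.64%) in ILC2, beside 3.36%. Both counts of ILC3 moved with single libraries: the 16 listed genes and 669 of all genes were 30 and 1873 without replicate 2 of ILC3 at ZT4, and 7 and 269 without replicate 2 of ILC3 at ZT23. In ILC3 the genes with small p included the induced gene Il6ra (0.00893), Fkbp4 (0.0168), Hsd11b2 (0.0236), which inactivates corticosterone, and Rel (0.0276), all with an adjusted p of 0.965 in the edgeR F-test. In ILC2 the 2 were Hsp90aa1 (0.0413) and Cxcl2 (0.0484), both with an adjusted p of 1.0. ILC3 groups at ZT4 and ZT23 held the epithelium-rich libraries, and the part of epithelial RNA in these values was not tested.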

How the data were processed

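Per the labels' protocols, cells of 6 mice per time were pooled and sorted, and libraries were made from 100 ng of total RNA with a TruSeq kit. The authors deposited raw read counts per Entrez gene and library; reads were counted with featureCounts on mm10, per the submitters' processing notes. The aligner and the strand setting are not given in the sources used here. Gene lengths came from the deposited files, and 22718 of 22797 genes were named through RefSeq (GRCm38.p6).

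Genes with enough counts by filterByExpr (minimum count 10) numbered 15339. With edgeR 4.0.16 in R 4.3.3, counts were TMM-scaled and 8 group means were fitted by quasi-likelihood (7 residual degrees of freedom), and p-values were adjusted by Benjamini-Hochberg over all genes tested, with a threshold of 0.05. The spread was shared between groups because ILC2 at ZT16 has 1 library. CPM and RPKM are TMM-scaled, and log2 CPM, used for relations, likeness and cosine curves, has a prior count of 2. The code was checked on simulated counts. Replicates differed beyond sampling noise (chi-square per degree of freedom 22 to 229).

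Relations were taken within a cell type with exact two-sided permutation p, adjusted over 48 relations with marker sums and, separately, 30 among the 6 genes. Motif letters were searched on both strands of RefSeq windows from 250 bases before to 50 after a start site. The 6 genes, the lists and the tests were chosen with earlier results of these data known. All 6 were named; in each role of the 125-gene list the 4 genes with the smallest p for cell type and the 2 with the smallest p over time in each cell type were eligible, and Hdac1, Il22, Areg and the family relatives were named beside them after their values were seen. Alternatives were library size scaling, DESeq2 1.42.0, limma 3.58.1 voom, other count filters (none, and a minimum of 50), a robust prior, each library left out, a replicate block, plasma cell and immunoglobulin genes removed, cell types fitted separately, and a cosine model of time; one, leaving out the 2 ILC3 libraries with the most Epcam, was added after seeing the data. Some genes that these rules would name are not reported here.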

Additional observations from a re-analysis of the deposited data

Results flagged for a closer look

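Among the 8 ILC3 libraries Sgk1 was highest, at 111 CPM, in replicate 1 of ZT4. The gap from that library to the next, at 83.6 CPM, was 0.561 of the whole range of the 8 libraries, wide enough to mark it as standing apart; chance marks about 1 in 20 groups in this way, and the 6 genes were looked at in both cell types. The same library had the most myeloid marker RNA of the 15 (4330 CPM) and, with 5903163 counts, the lowest total of the ILC3 libraries. Without it the log2 fold change of Sgk1 between ILC3 and ILC2 kept its direction and its call.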

How the results depend on the processing

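For the 6 genes and for the 122 listed genes as a whole, counts of calls stayed within 1.5 times of those reported under all alternatives run: the 6 genes had 3 or 4 calls for cell type and 0 for every test of time, and the listed genes had 39 to 51 calls for cell type when single libraries were left out. Counts by role and over all genes moved more. The 3 chaperone calls were 5 with library size scaling, 1 with the replicate block and 0 to 3 with single libraries left out (0 without replicate 2 of ILC3 at ZT16), and the 5 cofactor calls were 3 with the block and 2 to 5 with single libraries left out. Over all genes, where edgeR called 0 in each test of time, DESeq2 called 31 over time in ILC3 and 24 in ILC2, 2 for cell type by time, 3 and 6 for dusk minus dawn in ILC3 and ILC2, 2 and 4 for ZT16 minus ZT4, and 24 and 5 for ZT23 minus ZT10. With no filter on low counts 1 gene in ILC3 and 2 in ILC2 were called for ZT23 minus ZT10, and without the epithelium-rich libraries 1 in ILC2. Leaving out single libraries gave 0 to 3 calls over time in ILC3 and 0 to 1 for dusk minus dawn in ILC2 and for its difference between ILC3 and ILC2. The cause of these shifts was not tested. The calls of Nr3c1 (log2 fold change -1.81 to -1.53), Tsc22d3 (-1.46 to -1.12) and Klf9 (0.63 to 0.91) held throughout, Fkbp5 (-0.53 to -0.24) was never called, and Sgk1 (0.54 to 0.88) lost its call when the ILC2 library of ZT16 was left out, and kept it with the replicate block (0.57, adjusted p 0.0468). Library size scaling moved the median log2 fold change of all genes to 0.26, against 0.11, with 2981 of 4296 calls higher in ILC3, against 2318 of 4157, and 33 higher and 20 lower in the list, against 26 and 24; the 6 genes kept their directions.

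Near-zero or sparse estimates that were not called changed sign. For cell type, Pdk4 was -1.44 to 2.81 with single libraries left out and -1.76 without the 2 epithelium-rich ILC3 libraries. For dusk minus dawn in ILC3, leaving out single libraries gave -4.22 to 1.11 for Pdk4, -0.08 to 0.11 for Tsc22d3 and -0.14 to 0.08 for Sgk1. In ILC2 it gave -3.77 to 2.72 for Pdk4, -0.35 to 0.13 for Nr3c1, -0.39 to 0.33 for Tsc22d3 and -0.55 to 0.14 for Sgk1. In ILC3, Tsc22d3 was -0.05 in DESeq2, -0.01 with a minimum count of 50, -0.01 with cell types fitted separately and -0.11 without the epithelium-rich libraries, where Pdk4 was 1.76, and Sgk1 was 0.0 with library size scaling.

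With the replicate block, which leaves out ILC2 at ZT16, the 6 genes had 4 calls for cell type and 0 over time, the list had 42, and Nr3c1 was 0.13 for dusk minus dawn in ILC2. Same-numbered libraries deviated together in some pairs of groups but not in most. Correlations ran from -0.159 to 0.447 over 21 pairs of groups, with a median of 0.033 and 6 of them over 0.1. The numbers were therefore not taken to pair the samples. Removing 242 plasma cell and immunoglobulin genes, 0.16% to 0.606% of ILC3 counts and 2.15% to 16.5% of ILC2 counts, left all log2 fold changes of the 6 genes between cell types as reported, but removes no plasma cell reads of the 6 genes themselves. Among the other listed genes named, Bag1 gained its call with library size scaling and in DESeq2. With 2 libraries a group, or 1, small changes over time could not be resolved, and the few Pdk4 counts limit any statement on it.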
